A study of Mus musculus with 6 samples.

Results

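The genes described here were close to silent in cultured mouse muscle cells given solvent, and were read at a clear level in cells given sorafenib. A gene belongs to the set if the mean of its 3 DMSO libraries was below 50 normalized counts, if the mean of its 3 sorafenib libraries was at least 100 and at least 8 times the DMSO mean, and if each sorafenib value lay above each DMSO value. The values alone were met by 118 of the 55356 genes in the table. Of these, 26 were left out by name, among them 14 predicted genes with a Gm number, 3 small nucleolar RNAs, 2 integrins and 3 genes excluded by symbol, which left 92 genes. They were chosen on the sorafenib and DMSO values themselves, so their levels and folds are a description and carry no test. For scale, 41970 genes had a DMSO mean below 50. Of the 12381 of them with a name the rule allows, the 92 genes were 0.743%, 6820 were at 0 in all 6 libraries, and 12204 had a sorafenib mean under 100.

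The cells were C2C12 myotubes, which form by fusion of myoblasts of a mouse skeletal muscle line. One group of 3 cultures received 20 µM sorafenib, an inhibitor of several protein kinases used against cancer, for 24 h, and the other group of 3 received 0.1% DMSO, its solvent, for 24 h. Both groups are the same line with no engineered allele named in the labels, and the replicates are stated to be independent experiments. The RNA was selected for poly(A) tails and made into stranded libraries, and a value below is the authors' normalized count, with means given ± SD over n = 3 libraries.

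Most genes of an adult organism are silent in any given cell type, held so by the lack of the transcription factors that would drive them and by packaging of their promoters in repressive chromatin. Genes used in a few tissues, such as those of sensory cells, sperm, immune cells or kidney tubules, are the usual examples, and differentiated muscle does not need them. Several stress pathways, including the integrated stress response through ATF4 and the oxidative stress response through NRF2, can start transcription of genes that are low in resting cells.

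Depth was estimated as each library's normalized total divided by the value of a single read, which was 0.913 to 1.19 normalized counts. It was about 80.2, 65.5 and 70.4 M reads in the DMSO libraries and 77.4, 76.4 and 76.8 M in the sorafenib libraries. The normalized counts themselves, which do not measure depth, summed to 78.0 to 78.9 M in DMSO and 70.2 to 70.6 M in sorafenib. A DMSO value of a few normalized counts therefore rests on a few reads. The labelled cell type was checked on 12 skeletal muscle markers, whose sum was 1995870 to 2167190 in the DMSO libraries and 535373 to 645549 in the sorafenib libraries. All 12 were called lower by limma, against 37.8% of the tested genes, and 76.6% of the tested genes were called in either direction. With libraries scaled to equal totals, 46.6% of the tested genes were higher and 31.7% lower.

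Summed over the 92 genes, the libraries held 1583, 1561 and 1568 normalized counts in DMSO and 34721, 33925 and 34327 in sorafenib. Per M of library total, the DMSO libraries held 19.9 to 20.2 and the sorafenib libraries 483 to 492. The 3 libraries of each group lay close together, and every sorafenib library lay far above every DMSO library, as the choice of the genes makes them do. The DMSO means ran from 0 to 48.4 with a median of 13.8, and the sorafenib means ran from 102 to 2851 with a median of 226. The fold ran from 8.18 upward with a median of 17.7. It was at least 16 for 52 genes and at least 32 for 25. All 92 were tested and called higher by limma, against 38.8% of the 16645 tested genes, and in 40.1% of the tested genes every sorafenib library lay above every DMSO library. Nothing is read from that contrast, since the rule used it.

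**Figure D1:**
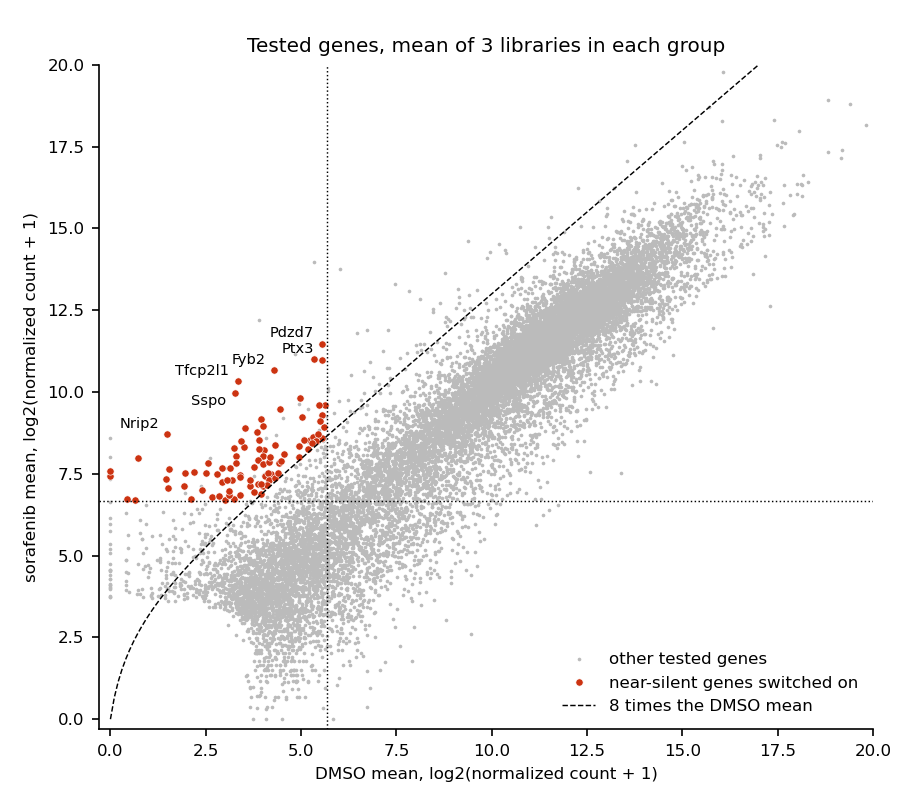
Mean log2(normalized count + 1) in 3 DMSO libraries (x axis) against the mean in 3 sorafenib libraries (y axis) for the genes tested; the switched-on genes are red, the other genes gray, and the dotted lines and the dashed curve mark 50, 100 and 8 times the DMSO mean. The 92 red points fill the upper left corner that the rule sets, and Pdzd7, with a sorafenib mean of 2851, is the highest of them.

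Most of the genes stayed modest in sorafenib when set beside the rest of the transcriptome. Per kilobase of exon, their median level was 3.54 normalized counts in DMSO and 71.7 in sorafenib, while the median over tested genes was 281 and 299. On that per-length scale the median gene of the set moved from percentile 3.82 of the tested genes to percentile 31.3, and 11 of the 92 reached the median of the tested genes. The highest levels per kilobase in sorafenib belonged to Ptx3 at 757, Pdzd7 at 703, Rpl35a-ps2 at 572, Fyb2 at 516, Dhrs9 at 483 and Tpsab1 at 426. The level of Rpl35a-ps2, a pseudogene with 333 exon bases, rests largely on sorafenib replicate 3, at 362 normalized counts against 120 and 89.3 in the others. By normalized count, 6 genes reached 1000 and 40 stayed under 200. By biotype 89 of the 92 are protein coding, and they lie on 19 chromosomes with 11 on chromosome 3.

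The promoters of 66 of the genes are in the RefSeq table for GRCm38.p6, each as 300 bases from 250 before to 50 after the start. Of the 66 genes, 13 have more than 1 listed promoter, among them Bglap3 with 3. For every gene with several, only the promoter farthest upstream was used, and the other starts were not examined. The promoters are shown first because a switch from near 0 makes the start region the natural place to look. Printed below are the 5 promoters with a CARE, the composite element TGATGNAAN read by ATF4 with a partner, each as a window of 59 bases on the strand that reads the motif, with the motif in capitals. The motif lies 107 bases upstream of the Pdzd7 start, 101 upstream of Plek, 107 upstream of Sfn, 123 upstream of Bglap3 and 160 upstream of Slc23a3.
Pdzd7 (chr19:45045846-45045904, plus strand): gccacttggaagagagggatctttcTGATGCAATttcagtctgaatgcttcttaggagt
Plek (chr11:17008786-17008844, plus strand): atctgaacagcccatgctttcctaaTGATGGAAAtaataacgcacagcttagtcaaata
Sfn (chr4:133602242-133602300, plus strand): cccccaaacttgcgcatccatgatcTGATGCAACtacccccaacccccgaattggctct
Bglap3 (chr3:88372831-88372889, minus strand): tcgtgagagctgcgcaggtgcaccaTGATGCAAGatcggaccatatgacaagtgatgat
Slc23a3 (chr1:75134017-75134075, minus strand): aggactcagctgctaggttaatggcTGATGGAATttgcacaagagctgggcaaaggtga
The Tfcp2l1 promoter is printed whole because Tfcp2l1 had the largest ratio among the genes above 1000, and the capitals mark TATAAA, 28 bases before the start.
Tfcp2l1 (chr1:118627695-118627994, plus strand): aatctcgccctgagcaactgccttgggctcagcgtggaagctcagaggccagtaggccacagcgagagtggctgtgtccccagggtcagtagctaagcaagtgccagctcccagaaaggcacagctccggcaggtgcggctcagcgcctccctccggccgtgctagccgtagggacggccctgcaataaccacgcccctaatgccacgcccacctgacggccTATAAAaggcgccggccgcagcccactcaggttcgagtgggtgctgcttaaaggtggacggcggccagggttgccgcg

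The 5 promoters with a CARE were 7.58% of the 66 (Wilson 95% interval 3.28 to 16.5), while 4.04% of all 27025 promoters and 4.90% of the 6343 promoters of other near-silent protein-coding genes hold that motif. Motifs were counted on both strands. The AP-1 motif TGANTCA, bound by Fos and Jun proteins, was in 13.6% (7.34 to 23.9), against 7.92% of all promoters and 10.9% of the other near-silent ones. The antioxidant response element TGACNNNGC, bound by NRF2, was in 12.1% (6.27 to 22.1), against 12.4% and 10.9%. The TATA motif TATAAA was in 13.6%, against 14.2% and 21.9%, the E-box CACGTG in 10.6%, against 7.24% and 4.98%, and the CCACG part of the endoplasmic reticulum stress element in 37.9%, against 32.7% and 24.1%. The interval of the genes held the share of all promoters for all 6 motifs, and it lay above the share of the other near-silent genes for the E-box and CCACG. Both of these motifs contain the letters CG. They also share CACG, so the same stretch can match both, as in the promoters of Slc1a7, Taf7l, Tcam1, Igf2bp3 and Lpar2. The differences for these motifs are therefore not separate. For the E-box the interval was 5.23 to 20.3, just above the 4.98% of the other near-silent genes. The median ratio of observed to expected CpG, described below, was 0.377 for the genes and 0.240 for the other near-silent ones. The tested genes, at 0.748, held the E-box in 9.96% and CCACG in 46.5%. Whether base composition takes part in the difference was not tested. On the gene's own strand CCACG was in 18.2% (10.7 to 29.1), an interval that holds both the 18.9% of all promoters and the 13.6% of the other near-silent ones. A match is a description of letters and says nothing of binding.

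The promoters were mostly poor in CpG. The ratio of observed to expected CpG had a median of 0.377 over the 66, 0.240 over the other near-silent protein-coding genes, 0.748 over the tested genes and 0.389 over all 27025 promoters. A ratio of at least 0.6, which marks a CpG island-like promoter, was reached by 25.8% of the 66, by 18.1% of the other near-silent genes, by 68.6% of the tested genes and by 36.5% of all promoters. The median share of C and G was 55.0%, 49.0%, 60.3% and 52.7% in the same order. The median CpG ratio of the genes was thus near that of all promoters, above the other near-silent genes and below the tested genes.

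**Figure D2:**
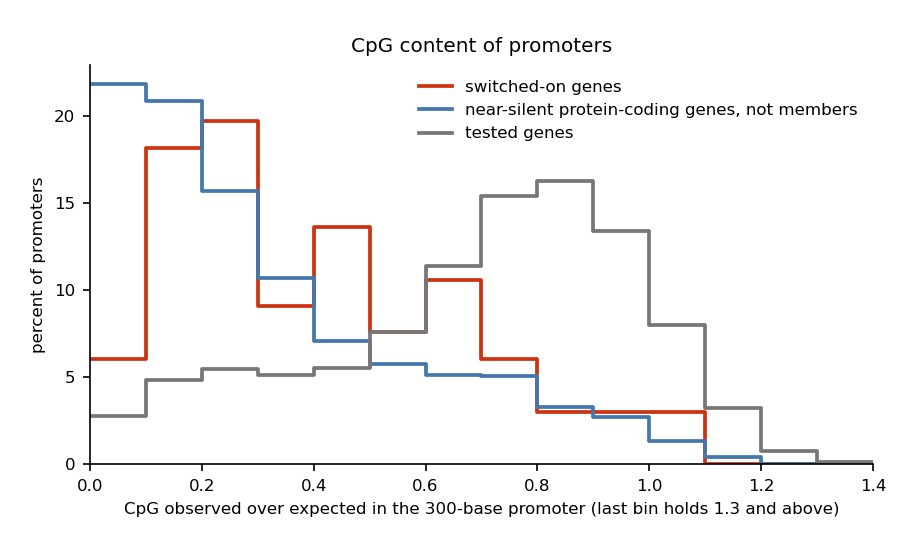
Share of promoters (y axis, percent) by the ratio of observed to expected CpG (x axis) for the switched-on genes, other near-silent protein-coding genes and all tested genes. The median was 0.377, 0.240 and 0.748 in that order.

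Pdzd7 (ENSMUSG00000074818.14, chromosome 19, 45026906 to 45045717 on GRCm38), a scaffold of the Usher protein complex in the stereocilia of inner ear hair cells, was the most abundant of the 92. It read 44.7, 45.7 and 46.1 normalized counts in the DMSO libraries and 2741, 2919 and 2893 in the sorafenib libraries, 62.7-fold. The 3 libraries of each group were nearly equal. Its exons lie opposite 206 exon bases of Lzts2, at 4893 ± 179 and 7493 ± 391 normalized counts. Of the other neural and sensory genes, Sh3tc2, which Schwann cells need to make myelin, had 53.1, 44.4 and 32.8 in DMSO and 716, 783 and 814 in sorafenib. Cabp1, a calcium sensor of neurons, had 23.6, 18.6 and 20.5 in DMSO and 790, 689 and 672 in sorafenib, 34.3-fold. In both genes the lowest sorafenib library was over 10 times the highest DMSO library. Nefl, the light subunit of neurofilaments, had 42.9, 35.7 and 19.0 in DMSO and 411, 323 and 379 in sorafenib. Nefl and its neighbour Nefm share 1108 exon bases on opposite strands, and Nefm itself rose from 206 ± 18.1 to 796 ± 56.3. Nyx, a proteoglycan of the retina, Sybu, which links vesicles to kinesin in axons, and Caskin1, a synaptic scaffold, reached 127, 123 and 109 normalized counts in sorafenib. Over the 7 genes of the class the median fold was 20.3.

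Secreted factors and proteases formed a class of 13 with a median fold of 25.7. Ptx3 (ENSMUSG00000027832.6, chromosome 3, 66219910 to 66225805), a pentraxin of innate immunity that tags microbes, read 59.7, 47.3 and 30.9 in DMSO and 1827, 2149 and 2113 in sorafenib, 44.1-fold. Sspo, the giant glycoprotein of the Reissner fibre in the brain ventricles, read 11.1, 3.41 and 11.2 in DMSO and 836, 971 and 1206 in sorafenib, 117-fold. Tpsab1, a tryptase of mast cells, read 20.3, 37.9 and 33.2 in DMSO and 1004, 783 and 888 in sorafenib, 29.3-fold. The groups lay apart in all 3 genes, as the rule requires. Fgf10, a growth factor of limb and lung buds, read 34.9, 39.0 and 71.3 in DMSO and 510, 862 and 965 in sorafenib. It sat closest of all to the DMSO limit, and 1 of its DMSO libraries was above 50. The chemokines Ccl5 (2.88 ± 0.490 to 182 ± 32.9, 63.3-fold) and Cxcl10 (16.7 ± 1.02 to 182 ± 11.6, 10.9-fold), which recruit T cells, had nearly equal sorafenib means. Of the digestive and complement proteases, Try5, a pancreatic trypsin, reached 226 ± 43.7, and Masp2, a protease of the lectin pathway of complement that lies opposite 1817 exon bases of the abundant Tardbp, reached 308 ± 17.9. Hhip, which binds hedgehog ligands, reached 202 ± 54.2, and Bmp6, a growth factor of bone and iron control, reached 106 ± 40.1. Crhbp, which binds corticotropin-releasing hormone, reached 182 ± 9.56, the rhomboid-family protein Rhbdl3 reached 257 ± 27.1, and Bglap3, of the osteocalcin family, reached 180 ± 34.6. Its relative Bglap2, which is not in the set, went from 76.5 ± 12.9 to 305 ± 19.3, and reads shared among these near-identical copies could be split between them.

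Receptors and immune signalling proteins were the largest class, with 17 genes and a median fold of 16.4. Fyb2 (ENSMUSG00000078612.10, chromosome 4, 104913460 to 105016860), an adapter in T cell receptor signalling, read 17.6, 14.3 and 23.5 in DMSO and 1760, 1583 and 1512 in sorafenib, 87.7-fold. Cd40, a receptor of B cells and antigen-presenting cells, read 8.60, 21.3 and 13.2 in DMSO and 686, 498 and 560 in sorafenib, 40.5-fold. Lpar2, a receptor for lysophosphatidic acid, read 29.9, 50.7 and 52.9 in DMSO and 623, 511 and 537 in sorafenib. In Fyb2 and Cd40 every DMSO library was under 25. Other genes normally read in blood cells were the T cell kinase Lck (222 ± 44.2 in sorafenib), the integrin activator Fermt3 (207 ± 25.5), the platelet protein Plek (229 ± 31.3) and the interferon-induced Ifit1 (276 ± 14.8). Gfral, the receptor for GDF15 in the hindbrain, read 0.930, 0 and 4.27 in DMSO and 146, 167 and 168 in sorafenib, so its fold of 92.4 rests on a few DMSO reads. Gdf15, the gene for its ligand, had 279 ± 20.8 and 7323 ± 1240 normalized counts.

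Several others of the class have roles outside blood. Lrp2, the endocytic receptor megalin of kidney tubules, read 5.81, 10.6 and 12.24 in DMSO and 173, 162 and 166 in sorafenib. Wnk4, a kinase that sets salt transport in the kidney, reached 226 ± 37.5, and Ppef2, a phosphatase of photoreceptors, reached 159 ± 26.9. Ptpru, a receptor phosphatase, reached 159 ± 11.1, and the orphan receptor Gpr141 reached 240 ± 29.6. Il15ra, the receptor chain for interleukin 15, read 27.2, 8.27 and 7.47 in DMSO and 116, 108 and 127 in sorafenib, and its 8.18-fold was the lowest of the 92. Arap3 read 58.6, 235 and 124 in sorafenib against 8.96 to 24.98 in DMSO, so its sorafenib libraries differed more from each other than those of most genes. Evi2b, a membrane protein of blood cells, read 27.3, 34.4 and 0 in DMSO and 212, 264 and 204 in sorafenib. It shares 1831 exon bases with Evi2 on the same strand, which makes its counts uncertain.

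Of the 12 channels and transporters, none exceeded 371 normalized counts in sorafenib. Slc23a3, an orphan relative of the vitamin C transporters that is read in kidney, had 13.0, 13.5 and 14.9 in DMSO and 408, 338 and 366 in sorafenib, 26.8-fold. Clca4a, of the calcium-activated chloride channel regulators, had 6.84, 10.7 and 8.96 in DMSO and 260, 267 and 265 in sorafenib. P2rx3, the ATP-gated channel of pain-sensing neurons, had 20.9, 19.9 and 22.7 in DMSO and 213, 263 and 233 in sorafenib. The sorafenib libraries of Clca4a were nearly equal, while those of Slc23a3 and P2rx3 were more spread. Slc1a7, a glutamate transporter of the retina, had 1.45, 3.21 and 1.01 in DMSO and 222, 180 and 197 in sorafenib, and Slc17a8, the vesicular glutamate transporter of inner hair cells, went from 2.82 ± 1.49 to 138 ± 4.31. The folds of 106 and 49.0 rest on a few DMSO reads each. Gabrr2, a GABA receptor subunit of the retina, reached 150 ± 16.9, the endolysosomal channel Mcoln3 reached 185 ± 24.7, the proton channel Hvcn1 reached 176 ± 5.98 and the large-conductance potassium channel Kcnma1 reached 111 ± 6.59. The remaining transporters were Slc16a14, of the monocarboxylate family, at 146 ± 22.4, and Atp10b, a lipid flippase, at 146 ± 11.2. Slc6a12, a transporter of betaine and GABA, read 0, 1.67 and 0 in DMSO and 116, 99.7 and 90.3 in sorafenib, which is too near 0 in DMSO for a fold.

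Among the 12 metabolic enzymes Dhrs9 (ENSMUSG00000027068.7, chromosome 2, 69380445 to 69404533), a dehydrogenase of retinoids and steroids, had 44.9, 30.9 and 43.7 in DMSO and 2096, 2084 and 2027 in sorafenib, 51.9-fold. Lrp2 is its neighbour at 19.8 kb. Entpd2, an enzyme that removes phosphate from extracellular ATP, had 29.5, 59.0 and 48.0 in DMSO and 634, 610 and 655 in sorafenib. It shares 612 exon bases with Npdc1, which held 9340 ± 137 and 9477 ± 177. Gsta2, a glutathione transferase of liver, had 15.5, 7.08 and 8.89 in DMSO and 611, 425 and 393 in sorafenib, 45.3-fold. Hsd17b1, which makes estradiol in the ovary, went from 13.5 ± 2.01 to 440 ± 15.97, and Akr1b7, an aldo-keto reductase of adrenal gland, went from 36.7 ± 12.23 to 373 ± 39.8. Gsta5, beside Gsta2 on chromosome 9, went from 6.00 ± 4.66 to 178 ± 3.28. Their relative Gsta4 reached 24916 ± 395 in sorafenib, and Gsta1 went from 62.7 ± 25.1 to 839 ± 75.6, so reads of these copies could be shared. Ugt1a7c, which conjugates drugs to glucuronic acid, reached 305 ± 26.4 and shares 2170 exon bases with Ugt1a6a, which reached 6735 ± 73.9. Faah, which breaks down anandamide, Adhfe1, a mitochondrial alcohol dehydrogenase, B3gnt5, which starts a family of glycolipids, and Ndst4, which modifies heparan sulfate, reached 158, 140, 324 and 365 normalized counts. The gene listed as Aldoa in the set (ENSMUSG00000114515.3) went from 19.1 ± 4.24 to 331 ± 25.5. The main aldolase A gene stands under the same symbol with another identifier and was lower in sorafenib, from 95086 ± 7373 to 43884.6 ± 248 (log2 change −1.11 ± 0.05 SE, limma adjusted p = 9.48e-08).

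The 10 transcription and RNA regulators had a median fold of 16.5. Tfcp2l1 (ENSMUSG00000026380.11, chromosome 1, 118627940 to 118685170), a factor of the kidney collecting duct and of pluripotent cells, read 8.79, 9.52 and 8.96 in DMSO and 1170, 1373 and 1290 in sorafenib, 141-fold. Nrip2 (ENSMUSG00000001520.13, chromosome 6, 128399300 to 128416430), which binds nuclear receptors, read 4.24, 1.20 and 0 in DMSO and 434, 356 and 466 in sorafenib, and its fold of 231 rests on a few DMSO reads. Gbx1, a homeobox factor of the spinal cord, read 49.8, 35.7 and 42.6 in DMSO and 462, 396 and 407 in sorafenib, 9.89-fold. The groups lay apart in all 3 genes, as the rule requires. Esrrg, a nuclear receptor of oxidative metabolism, reached 391 ± 38.8, Creb3l4, a bZIP factor anchored in the endoplasmic reticulum, reached 171 ± 4.61, and the RNA-binding protein Igf2bp3 reached 125 ± 18.3. Med12l, a relative of a Mediator subunit, reached 157 ± 9.52. Dnmt3l, the cofactor of DNA methylation in germ cells, was listed at 0 in all 3 DMSO libraries and read 153, 157 and 199 in sorafenib, and no fold is given. Pax8, a factor of thyroid and kidney, read 3.42, 2.08 and 0 in DMSO and 121, 89.4 and 191 in sorafenib. It lies opposite 367 exon bases of Gm13415, which went from 27.4 ± 6.87 to 2298 ± 132. Taf7l, a basal factor of the testis, read 3.21, 1.75 and 4.95 in DMSO and 107, 102 and 105 in sorafenib.

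Cilia and sperm genes numbered 6, with a median fold of 19.3. Cfap91, part of the radial spokes of motile cilia, read 26.3, 34.4 and 33.8 in DMSO and 661, 553 and 577 in sorafenib. Tcam1, an adhesion gene of the testis, read 12.5, 15.2 and 17.6 in DMSO and 481, 503 and 495 in sorafenib, 32.6-fold. Garin1b, a Golgi protein of spermatids, read 51.5, 44.8 and 46.0 in DMSO and 511, 466 and 488 in sorafenib. All 3 were several times over their DMSO level in every sorafenib library, and the rule chose them on that difference. Garin1a lies 28.5 kb from Garin1b and reached 114 ± 9.68. Catsperd, a subunit of the sperm calcium channel, reached 300 ± 17.9. Dnah14, an axonemal dynein, read 19.4, 1.53 and 4.65 in DMSO and 387, 273 and 269 in sorafenib.

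The 5 skin and epithelial genes had the lowest median fold of the classes, 9.20. Sfn, the epithelial stratifin and a p53 target, read 36.1, 33.3 and 44.7 in DMSO and 364, 347 and 322 in sorafenib. S100a3, a calcium-binding protein of the hair cuticle, read 31.5, 33.7 and 24.0 in DMSO and 289, 278 and 200 in sorafenib. Tchh, the trichohyalin of hair follicles, read 10.7, 3.57 and 5.60 in DMSO and 237, 176 and 202 in sorafenib, 31.0-fold. In all 3 the groups were apart, as the rule requires. S100a7a lies 51.3 kb from S100a3 and reached 185 ± 28.0, and Cdh3, the P-cadherin of epithelia, read 4.88, 9.51 and 6.72 in DMSO and 113, 101 and 97.1 in sorafenib.

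A last class of 10 holds genes of other or unclear role. Ankrd55 read 39.0, 45.1 and 41.4 in DMSO and 379, 361 and 350 in sorafenib. Tmem74, a membrane protein of lysosomes linked to autophagy, read 9.76, 11.9 and 7.84 in DMSO and 427, 335 and 314 in sorafenib, 36.5-fold. Dennd2d, of the DENN family of Rab regulators, read 6.10, 7.70 and 17.5 in DMSO and 337, 320 and 303 in sorafenib. In none of these 3 did the groups overlap, as the rule requires. BB557941 read 1.95, 0 and 0 in DMSO and 292, 220 and 239 in sorafenib. Dthd1 read 1.03, 0 and 0 in DMSO and 79.2, 128 and 107 in sorafenib. The DMSO values of both rest on very few reads. Rpl35a-ps2, a processed pseudogene, was listed at 0 in all DMSO libraries and read 120, 89.3 and 362 in sorafenib. Whether reads of related genes were counted for it was not tested. Glrp1, Fam181b, Lratd2 and the pseudogene Ifi203-ps reached 263, 142, 115 and 166 normalized counts in sorafenib.

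**Figure D3:**
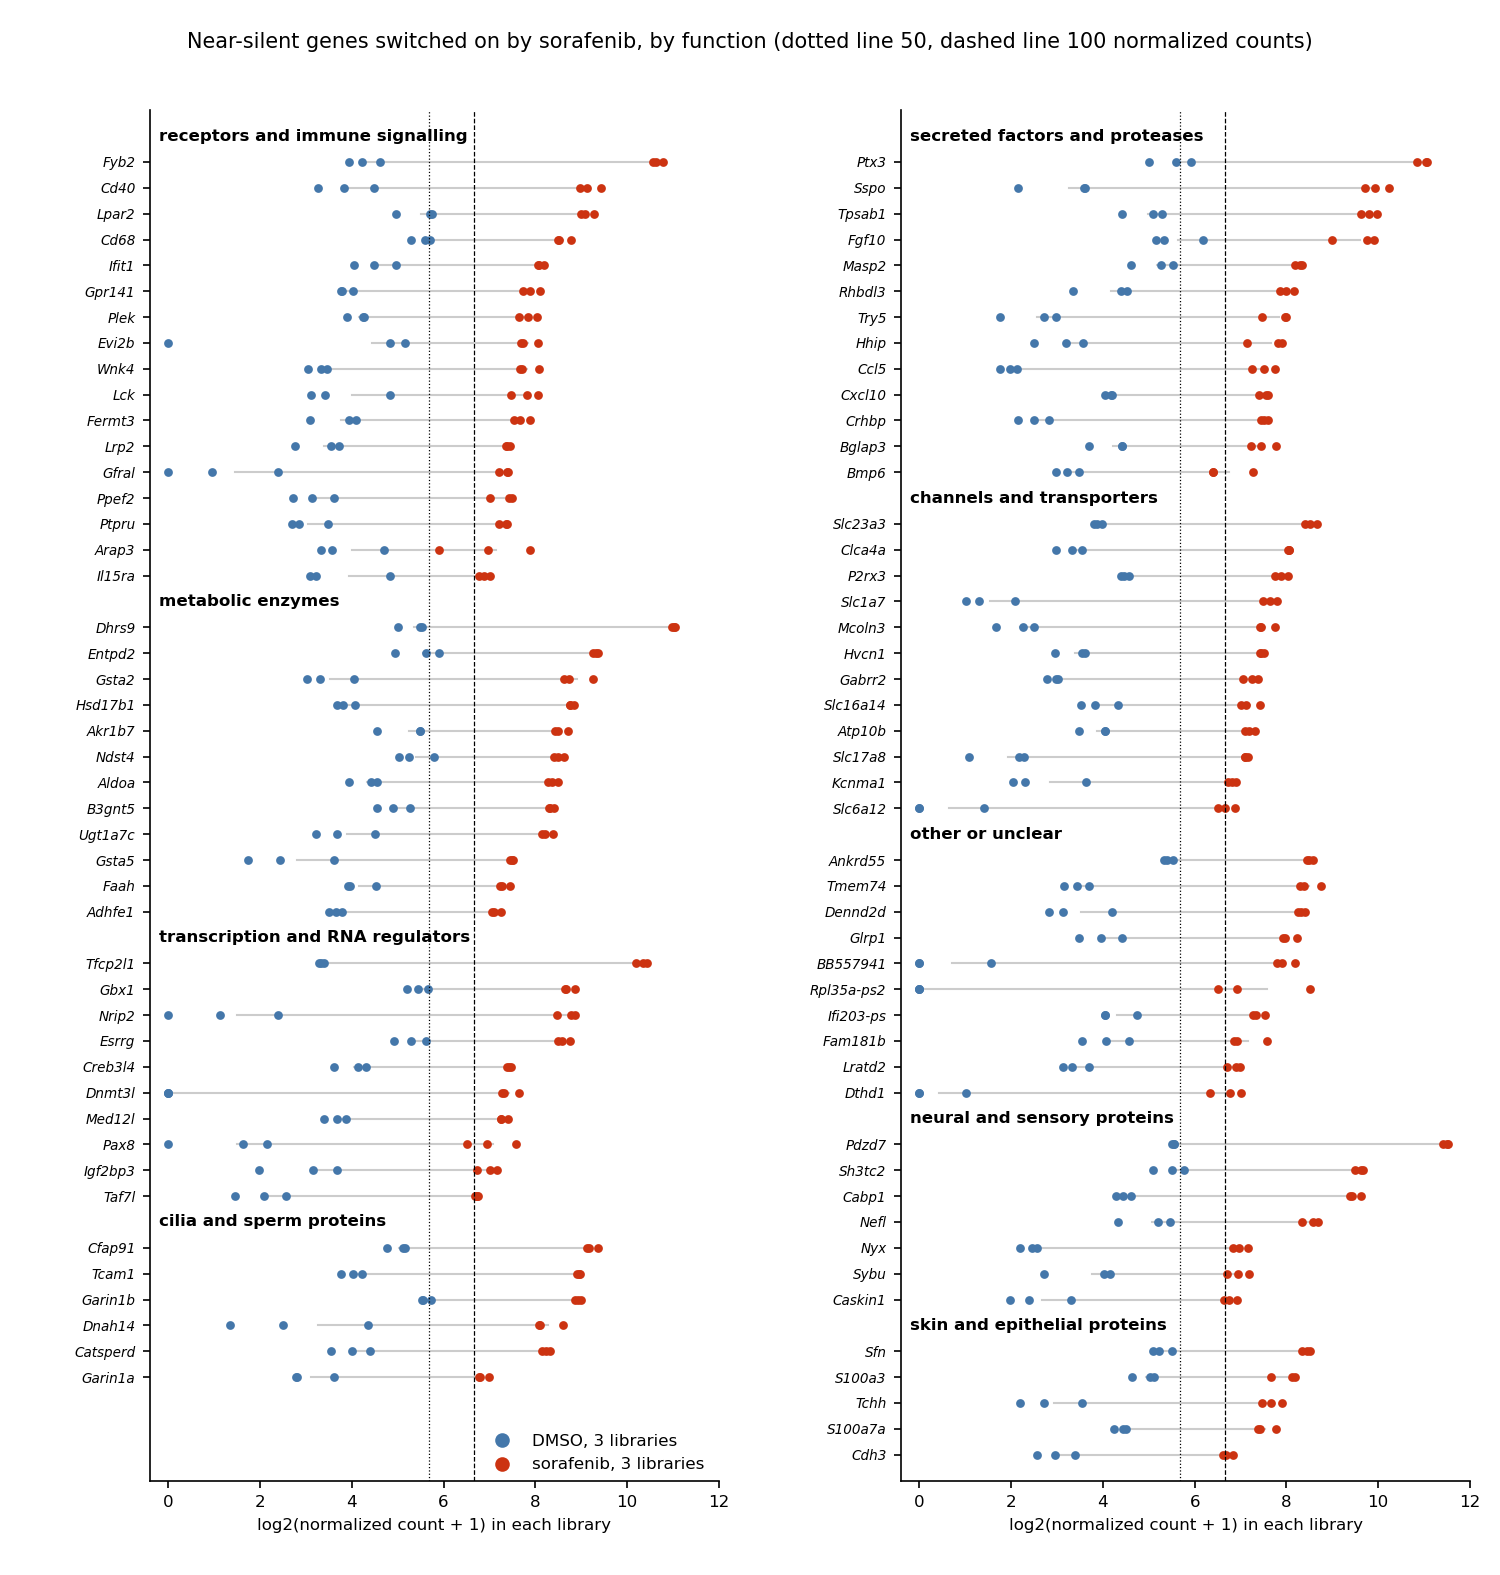
Each gene's log2(normalized count + 1) in 3 DMSO libraries (blue) and 3 sorafenib libraries (red), in 9 classes by function, with the rule's limits at 50 (dotted) and 100 (dashed). The 2 colours do not overlap for any gene, as the rule requires, and the red points of Rpl35a-ps2, Arap3 and Pax8 are the most spread.

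Genes lay close to each limit of the rule on both sides. Fgf10 at 48.4, Garin1b at 47.4 and Ptx3 at 46.0 were just inside the DMSO limit. Nlrc5, an immune regulator of antigen presentation, at 50.9 and then 1103 in sorafenib, Ppef1 at 51.3 and then 1054, and Ifi207 at 57.0 and then 657 were just outside, among 66 genes that failed this limit alone. Slc6a12 at 102, Cdh3 at 104 and Taf7l at 105 were just inside the sorafenib limit, and Scg2 at 97.1, Serpinf2 at 94.4 and Nectin4 at 93.6 were just outside, among 302 that failed it alone. At the fold limit, Il15ra at 8.18, Cd68 at 8.49 and S100a3 at 8.60 were inside, and Piwil2 at 7.78, Wwc1 at 7.76 and Sfrp4 at 7.66 were outside, among 85.

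The spread among the sorafenib libraries varied from gene to gene. The coefficient of variation ran from 1.40% to 78.6% with a median of 10.2%, while the median was 5.61% over the 6524 tested genes in the same range of sorafenib level. Levels within that range, which ran up to 2851, were not matched. The 92 genes had a median of 226, with 40 under 200, so the difference between these medians is not read as a trait of the genes. It was over 20% for 10 genes, led by Rpl35a-ps2 and Arap3. Replicate 1 of sorafenib held the highest value of the 3 for 53 of the 92 genes, replicate 2 for 22 and replicate 3 for 17. The same count was not made over all tested genes, so nothing is read from it. When each library in turn was left out, 88 to 93 genes met the rule, and 75 of the 92 met it in every such case and after scaling to equal totals.

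The stress pathway genes are given from lists chosen with earlier results of these data known. The share called higher on each list is therefore a description and is not independent of the data. All 30 listed genes of the integrated stress response were tested and higher in sorafenib by limma, with a median log2 change of 1.92, against 0.02 for all tested genes and a background of 38.8% higher. None of the 30 is among the 92, and 2 of them had a DMSO mean below 50. These were Adm2 (48.1 ± 11.97 to 323 ± 24.1) and Slc7a3 (28.0 ± 8.73 to 141 ± 14.9), named here because of these values, and their folds of 6.71 and 5.05 were under the limit. Of the 20 tested NRF2 target genes, 17 were higher and 3 were lower, with a median log2 change of 1.37. Of the 17, 1, Gsta2, is among the 92. The rule chose it on these values, so its higher call was set in advance, and it is counted in the 17 and in the median. The lower genes were Akr1b8 (log2 change −0.41), Aox1 (−1.20) and Me1 (−0.36), an aldo-keto reductase, aldehyde oxidase and malic enzyme.

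Markers of 7 other cell types were read to see whether the genes came with the cells they are known from. Of 92 such markers in the table, 71 were under 50 in DMSO, and 5 of these reached 100 in sorafenib: Nefl, Cd68, Lrp2, Pax8, which are in the set, and the tuft cell gene Sh2d6 (48.4 ± 3.67 to 214 ± 15.3). A further 61 of the 71 stayed under 10. Cd68, the lysosomal marker of macrophages, read 47.6, 50.9 and 38.1 in DMSO and 436, 366 and 358 in sorafenib. Cd68 was chosen on these values, so the leukocyte list is given without it: of 3 tested markers 2, Cd14 and Cx3cr1, were higher and 1, Itgam (61.0 ± 8.64 to 17.1 ± 1.90), was lower, against 38.8% higher and 37.8% lower of all tested genes. Their list summed to 340 to 396 in DMSO and 661 to 738 in sorafenib. Most of that sum was Cd14 alone (278 ± 15.4 to 643 ± 40.3), so it is not read as a rise of the list. Ptprc, the pan-leukocyte marker, read 0.325 ± 0.563 and 0.611 ± 0.529 and the macrophage marker Adgre1 read 0. Without Lrp2 and Pax8, the kidney tubule list summed to 327 to 335 in DMSO and 641 to 679 in sorafenib, with 2 markers tested. Cubn, the partner receptor of megalin, rose from 298 ± 11.5 to 647 ± 15.0, Slc34a1 fell from 20.6 ± 8.05 to 1.70 ± 1.35, and the segment markers Umod, Slc22a6 and Kap were at 0. Of 12 neuronal markers tested beside Nefl, 3 were higher and 6 lower, and Snap25, Rbfox3 and Elavl4 were at 0. Of 6 epithelial markers tested, 1 was higher and 4 lower, and Epcam read 0 in DMSO and 0.304 in sorafenib. Of 5 tuft cell markers tested, 3 were higher and 2 lower: Avil (64.1 ± 3.40 to 13959 ± 237), Sh2d6 and Ptgs1 rose, while Dclk1 (94624 ± 1696 to 23592 ± 3418) and Alox5 (18056 ± 569 to 7372 ± 622) fell. In the hepatocyte and germ cell lists 1 marker each was tested, lower in the first and higher in the second (Dmrt1, 39.4 ± 6.30 to 68.1 ± 15.3). In these bulk libraries, fewer cells of a type and less RNA per cell cannot be told apart.

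**Figure D4:**
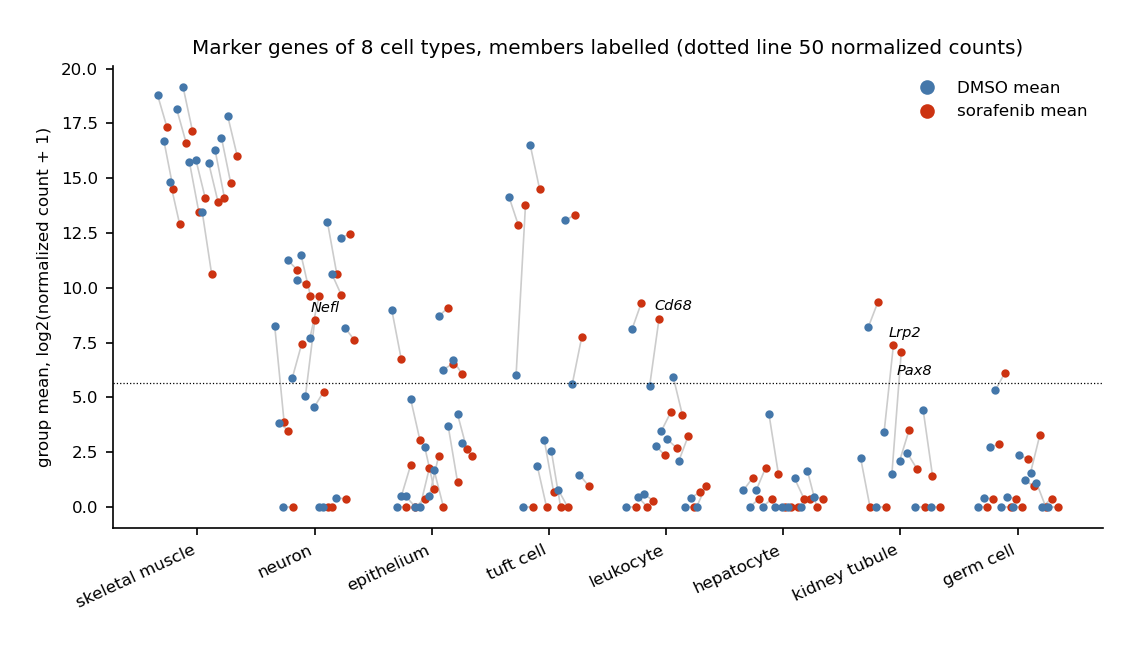
Group means, as log2(normalized count + 1), of markers of skeletal muscle and of 7 other cell types, in DMSO (blue) and sorafenib (red), each gene's pair joined by a line and the members of the set named. Most markers of other cell types lie near 0 in both groups, and the 12 skeletal muscle markers lie lower in sorafenib.

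Neighbouring genes were counted for the 92 and for all tested genes. For 15 of the 92 (16.3%) a gene ended on the same strand within 5000 bases upstream, as for 15.1% of tested genes. Of those 15 upstream genes 10 were higher by limma, 1 was lower, 1 was not called and 3 were not tested, against 38.8% higher of all tested genes. No test of that difference was made. Of the 15, 12 were more abundant than the gene that followed in sorafenib. Cd68 begins 782 bases after Eif4a1 (43180 ± 1216 to 47022 ± 1245), Hsd17b1 lies 738 bases after Naglu and Adhfe1 492 bases after Rrs1 (2879 ± 128 to 8271 ± 345). Exons were shared on the same strand with another gene for 5 (5.43%), against 6.46%, and lay opposite another gene's exons for 25 (27.2%), against 25.5%, and in 14 of these the opposite gene was the more abundant in sorafenib. Whether reads running on from, or shared with, such neighbours take part in any value was not tested.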

How the data were processed

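Poly(A)-selected RNA from 6 C2C12 myotube cultures was sequenced on stranded libraries, per the labels' protocols. The deposited signal per library is a count normalized by the authors. The submitters' processing notes name DESeq2, bcl2fastq and the build GRCm38.p6. For read assignment, the tool was not given in the sources used here. A log2 fold change, a Wald score and a p-value per gene, deposited by the authors, were not used. Whole reads could not be recovered, since 59.2% to 68.2% of low values were whole multiples of a single read within 0.02, so no count test was run. The deposited genome positions mostly do not match GRCm38 (3 of the 92 genes are within 1 base), so positions are those of GENCODE M21 by gene identifier.

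The genes and the lists were chosen with earlier results of these data known. Genes with a value of at least 10 in at least 3 libraries (2 where a library was left out) were tested on log2(value + 1) with limma 3.58.1 (R 4.3.3; eBayes with trend and robust set), and p-values were Benjamini-Hochberg adjusted over all 16645 genes, with 0.05 as the threshold. The script was tested on simulated data. The 10 genes highest in sorafenib, the 10 with the largest ratio, the top 3 of each class, those just inside the limits and those on fixed lists are given per library, and the others as means. Genes just outside the limits were also to be given per library, but stand as means. Marker lists without the chosen genes, and motif intervals on the gene's strand, were added after the data were seen. Classes were assigned by hand, and background on gene function carries no test. Python 3.11.15, pandas 2.3.3, numpy 2.4.6 and matplotlib 3.10.9 were used. Alternatives were equal totals, quantile normalization, other filters and pseudocounts, other limits of the rule, a replicate block, and leaving out each library.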

Additional observations from a re-analysis of the deposited data

How the results depend on the processing

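The number of genes that met the rule depended on its limits: 52 with a sorafenib mean of at least 200, 142 with a ratio of at least 4 and 54 with a ratio of at least 16, against 92. It was 71 and 103 with a DMSO limit of 25 and 100, 100 with libraries scaled to equal totals, and 88 to 93 with a library left out. The genes lost when some library was left out were Arap3, Bmp6, Cd68, Cdh3, Dthd1, Entpd2, Evi2b, Fam181b, Fgf10, Il15ra, Lpar2, Masp2, Ndst4, Ptx3, S100a3, Slc6a12 and Sybu. Counted on the gene's strand only, CARE was in 3.03% and CCACG in 18.2% of the 66 promoters, against 7.58% and 37.9% on both; on that strand all promoters held 2.15% and 18.9%, and other near-silent ones 2.62% and 13.6%. The limma calls stayed within 11291 to 13936 genes in the settings run, and 91 or 92 of the 92 were called. Evi2b was the exception, with an adjusted p of 0.0961 without the filter on low values, 0.101 with a pseudocount of 0.1 and 0.0850 to 0.0930 without a sorafenib library. The NRF2 count, with the chosen gene Gsta2 in it, was 16 or 17, and the integrated stress response count was 30 in all. Scaling to equal totals moved the median log2 change of all genes from 0.02 to 0.17 and the calls from 6453 higher and 6297 lower to 7740 and 5271. With the replicate number as a block, limma called 12635 genes against 12750, and the same 92. The deviations of equally numbered libraries correlated at 0.0769, 0.0448 and 0.0220. Each sorafenib library correlated most with the DMSO library of its number, and the library names alternate between the groups by replicate number. DMSO replicate 3, however, correlated more with sorafenib replicate 2 (0.0253). All these correlations were weak and the main fit did not pair the cultures, but a pairing was not excluded. Values of a few normalized counts rest on a few reads, so folds of genes near 0 in DMSO are not precise.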
